A study of Mus musculus with 12 samples.

Results

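The expression of 10 genes of the heat shock response was followed in the liver of Con and CR mice: the heat shock factor Hsf1, 6 cytosolic chaperone genes (Hspa1a, Hspa1b, Hspa8, Hsph1, Dnajb1 and Hsp90aa1) and 3 mitochondrial chaperone genes (Hspa9, Hspd1 and Hspe1). They were chosen by name, with earlier results of these data known, and all 10 were found among the 24537 genes of the deposited table. Liver RNA was sequenced from 12 male C57Bl/6J mice that entered the study at 6 weeks of age and were housed singly. Con mice ate ad libitum, CR mice received 30% less food than that, and 3 mice of each diet were examined at day 25 and 3 others at day 30. By the methods, CR mice were given a fortified form of the chow, in amounts adjusted weekly by body weight. Effects of the chow and of restriction cannot be told apart, and CR below stands for both. All groups carried the same unaltered genotype, and the methods describe heavy water given to mice before sacrifice, midday feeding of CR mice and collection under isoflurane. Each library was taken to come from 1 mouse. Libraries are named as in the deposited table, Con7 to Con9 and CR7 to CR9 at day 25 and Con10 to Con12 and CR10 to CR12 at day 30. The design addressed whether the hepatic transcriptome differs under CR before and after a slowdown of hepatic protein synthesis.

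Cells that accumulate unfolded protein release HSF1 from chaperones that hold it inactive. HSF1 then forms trimers, binds heat shock elements, which are inverted repeats of the unit GAA and its complement TTC, and raises transcription of chaperone genes. Chaperones of the HSP70 class bind exposed stretches of other proteins, J-domain partners such as DNAJB1 load these clients, HSP110 exchanges the nucleotide, and HSP90 finishes selected clients. Mitochondria hold a set of their own, in which HSPA9 pulls proteins through the inner membrane and the HSPD1 and HSPE1 chamber folds them.

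The heat shock elements that a search of the promoters found are printed here. They show which of the genes searched carry the element next to the start. A RefSeq table of promoter windows on GRCm38.p6, the mm10 build of the deposited values, matched 6 of the 10 genes. It held no window for Hsf1, Hspa8, Hspa9 and Hsp90aa1, which were therefore not searched. The 250 bases before each start were searched on both strands for exact letters only. The letters searched were GAANNTTC and TTCNNGAA, both palindromic orders of a 2-unit repeat, and a 3-unit form in which NNGAA follows GAANNTTC, so that it contains both 2-unit orders. Of 32851 windows in the table, 6.69% held the first, 7.17% the second, 12.8% either and 0.466% the 3-unit form. Each line gives 30 bases in the direction of the gene with the element in capitals.
Hspa1b, chr17:34959324-34959353, minus strand: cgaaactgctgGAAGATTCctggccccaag
Hsph1, chr5:149636351-149636380, minus strand: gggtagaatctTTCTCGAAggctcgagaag
Hspe1, chr1:55088053-55088082, plus strand: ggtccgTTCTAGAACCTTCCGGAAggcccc
Hspd1, chr1:55088053-55088082, minus strand: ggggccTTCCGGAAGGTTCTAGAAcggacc

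Hspd1 and Hspe1 lie head to head on chromosome 1 and their lines show the same stretch read on opposite strands, which holds the 3-unit form. Hspa1a carries the Hspa1b stretch unaltered at chr17:34972242-34972271. The 250-base windows of Hspa1a and Hspa1b were 98.8% identical and differed by T44C, C47T and G249T, with the Hspa1b base first and positions counted from the 5′ end of the window. In the Dnajb1 windows these letters did not occur. A match or its absence describes the letters of a window and not the binding of a factor.

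FPKM is the number of reads on the exons of a gene divided by their length and by library depth, so that levels of different genes can be set side by side. In Con mice at day 25, Hspa9 was highest at 151 ± 1.91 FPKM (SD, n = 3). Hspa8 followed at 70.7 ± 9.90, Hspd1 at 50.4 ± 3.94 and Hspe1 at 29.4 ± 3.21, and the 3 mice of each of these genes did not overlap with those of its neighbours. Hsph1 at 7.96 ± 1.38, Dnajb1 at 5.90 ± 0.674, Hsp90aa1 at 5.42 ± 0.505 and Hsf1 at 5.05 ± 0.610 FPKM formed a lower tier in which each neighbouring pair overlapped. Hspa1b at 0.444 ± 0.0687 FPKM and Hspa1a at 0.0330 ± 0.0404 FPKM were lowest. In the other groups Hspa9 was again highest and Hspa1b and Hspa1a lowest. Hspa8 and Hspd1 overlapped in CR mice at day 25 and in Con mice at day 30. In CR mice at day 30, Hspd1 lay above Hspa8 and Hspe1 overlapped with Hspa8.

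**Figure D1:**
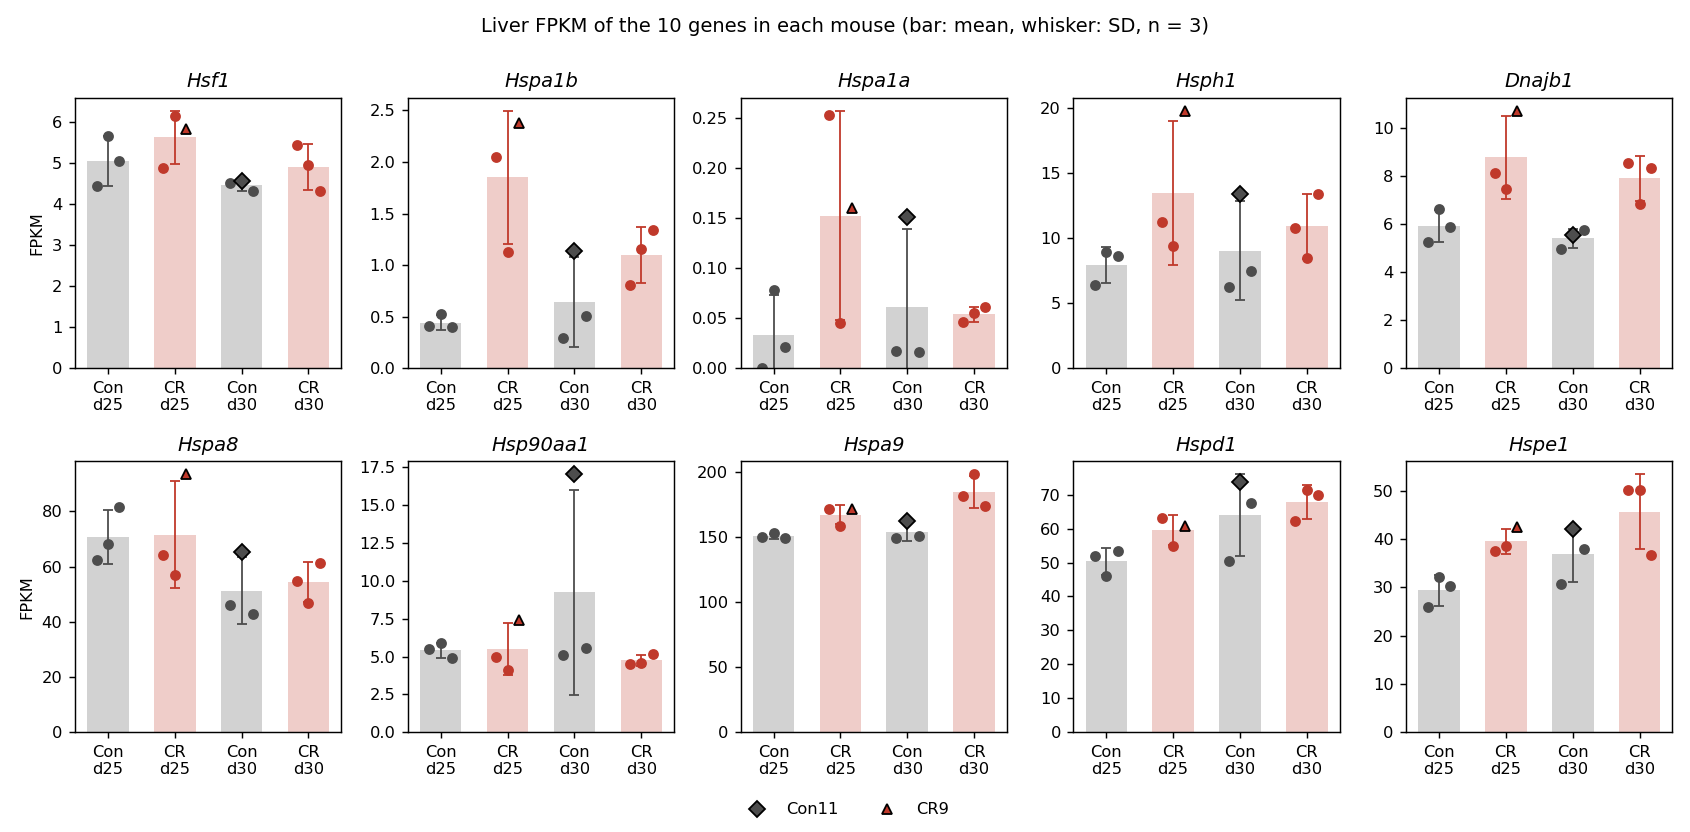
Liver FPKM (y axis, linear, from 0) of each of the 10 genes in Con (grey) and CR (red) mice at day 25 and day 30; points are single mice, bars are means and whiskers are SD (n = 3). The 6 CR mice lay above the 6 Con mice for Dnajb1, while library Con11 (diamond) reached 17.05 FPKM for Hsp90aa1 and CR9 (triangle) 19.8 FPKM for Hsph1.

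Depth was 15748034 to 23345874 reads per library, of which 78.1% to 84.3% lay on exons. The 8 hepatocyte markers examined were at 1 FPKM or more in all 12 libraries. Of 7 Kupffer cell and macrophage markers, 4 fell in CR mice at day 25 (summed FPKM 39.9 to 68.1 in Con and 25.6 to 34.1 in CR mice) and 0 fell and 1 rose at day 30. Of 8 hepatocyte markers, 2 rose at day 25, and 3 rose and 1 fell at day 30. Of 6 sinusoidal endothelial markers and of 5 tested stellate cell and fibroblast markers, 1 each rose at day 25 and 3 each at day 30. In these bulk samples, fewer cells of a type and less RNA per cell cannot be told apart, and the part of cell composition in the values below was not tested. The summed FPKM of 7 T, B and NK cell markers was 1.12 to 3.31 and that of 4 neutrophil markers 0 to 1.55 over all libraries. Library Con11 stood apart for these genes. It was the highest of its group for 9 of the 10, whereas it was highest for 32.4% of the 10593 genes tested, and values at day 30 are therefore given with and without it. Con11 was picked by its values of these same genes. Where it was the highest Con mouse, leaving it out raises the change of CR over Con by construction. Calls gained without Con11 are therefore descriptions.

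Calls below are those of limma on log2(FPKM + 1) with a Benjamini-Hochberg adjusted p under 0.1, adjusted over the 10593 genes that had at least 1 FPKM in at least 3 libraries. The pseudocount of 1 makes log2 fold changes smaller than the log2 ratio of FPKM for genes of low level. Of the 10 genes, 9 were tested, and Hspa1a did not pass the filter. Because the genes were chosen with earlier results of these data known, their counts beside the shares of all genes are descriptions. This holds here and below, and no test of the set was made. At day 25, 3 of the 9 rose in CR mice (Hspa1b, Dnajb1 and Hspe1) and 0 fell, where 5.6% of all genes tested were called higher. At day 30, 2 rose (Dnajb1 and Hspa9) and 0 fell, against 8.33% of all genes. Over both days, with day in the model, 5 rose (Hspa1b, Hsph1, Dnajb1, Hspa9 and Hspe1) and 0 fell, against 14.5% of all genes. The median log2 fold change of the 9 genes was 0.24 at day 25, 0.26 at day 30 and 0.20 over both days, beside medians over all genes of -0.04, -0.07 and -0.05. Of the 6 libraries in which Hspa1b reached 1 FPKM, 5 were of CR mice, 3 of them at day 25, so that it passed the filter mainly through the diet in which it was higher. The study's second limit, a log2 change of 1 or more in either direction on top of the adjusted p, was met by 0 of the 9 and by 1.48% of all genes at day 25, 2.21% at day 30 and 1.66% over both days. That 0 holds for these settings, and Hspa1b met the limit at day 25 with a pseudocount of 0.1 (1.79, limma, adjusted p = 0.0149), with voom on recovered reads (2.01, adjusted p = 0.0108) and with quantile normalization (1.02, adjusted p = 0.00824).

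The inducible HSP70 genes Hspa1a and Hspa1b encode nearly the same cytosolic chaperone and are nearly silent in unstressed tissue. At day 25, Hspa1b was at 0.406, 0.523 and 0.402 FPKM in Con mice and at 2.05, 1.13 and 2.37 FPKM in CR mice. Every CR mouse lay above every Con mouse, and CR9 was highest. At day 30 it was at 0.296, 1.14 and 0.506 FPKM in Con mice and at 0.809, 1.15 and 1.34 FPKM in CR mice. Con11, the middle value of its line, lay above CR10, so the groups overlapped. The mean FPKM was 4.17-fold higher in CR mice at day 25 and 1.71-fold at day 30. On the log2(FPKM + 1) scale the change was 0.96 ± 0.20 (SE) at day 25 (limma, adjusted p = 0.0115) and 0.38 ± 0.20 at day 30 (adjusted p = 0.212). Without Con11, the day 30 value was 0.58 and passed the test (limma, adjusted p = 0.0685). The CR effect at day 30 minus that at day 25 was -0.58 ± 0.28 (limma, unadjusted p = 0.0596, adjusted p = 1.0), so that a difference between the days was not established.

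These genes had few reads. Hspa1b had 17 to 134 reads per library and Hspa1a 0 to 15. Hspa1a was at 0, 0.078 and 0.021 FPKM in Con mice and 0.253, 0.045 and 0.160 FPKM in CR mice at day 25. At day 30 it was at 0.017, 0.151 and 0.016 FPKM in Con mice and 0.046, 0.055 and 0.061 FPKM in CR mice. CR7 was highest and Con11 was highest among Con mice, and the groups overlapped on both days. Of the 100-base windows of the Hspa1b transcript, 49.9% also occur in Hspa1a, so reads may have been split between the pair. With the FPKM of both genes summed, the CR effect was 1.00 at day 25 (limma, adjusted p = 0.0138) and 0.37 at day 30 (adjusted p = 0.257).

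Dnajb1 encodes the J-domain protein that hands clients to HSP70 and, with it, dampens HSF1. At day 25 it was at 5.25, 6.60 and 5.86 FPKM in Con mice and at 8.12, 7.47 and 10.7 FPKM in CR mice. The day 30 values were 4.96, 5.53 and 5.73 FPKM in Con mice and 8.53, 6.83 and 8.31 FPKM in CR mice. All 6 CR mice lay above all 6 Con mice, the only gene of the 10 for which this held, and 3.82% of all genes tested had this order. The mean was 1.49-fold higher in CR mice at day 25 and 1.46-fold higher at day 30. Its log2 change was 0.49 ± 0.13 at day 25 (limma, adjusted p = 0.0343), 0.47 ± 0.13 at day 30 (adjusted p = 0.0278) and 0.48 ± 0.09 over both days (adjusted p = 0.00134). The day 25 call was lost without CR9 (0.35, adjusted p = 0.121) or without Con7 (0.42, adjusted p = 0.116), and the day 30 call without CR10 (0.42, adjusted p = 0.104). Without Con11 the day 30 value was 0.48 (limma, adjusted p = 0.0617).

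Hsph1 encodes the HSP110 chaperone, which releases nucleotide from HSP70. At day 25 it was at 6.38, 8.91 and 8.60 FPKM in Con mice and at 11.2, 9.42 and 19.8 FPKM in CR mice. The groups did not overlap, and CR9 lay far above the other CR mice. At day 30 the gene stood at 6.25, 13.4 and 7.45 FPKM in Con mice and at 10.8, 8.47 and 13.4 FPKM in CR mice. Con11 reached the level of the highest CR mouse, so the groups overlapped. At day 25 the log2 change was 0.64 ± 0.28 and missed the threshold (limma, adjusted p = 0.18), and without CR9 it was 0.345 (adjusted p = 0.508). The threshold was also missed by 0.29 ± 0.28 at day 30 (adjusted p = 0.503) and 0.58 at day 30 without Con11 (adjusted p = 0.182). Over both days the change was 0.46 ± 0.20 (limma, adjusted p = 0.089). That last call was lost without any 1 of 9 of the 12 libraries, with 0.31 and an adjusted p of 0.185 without CR9 in limma, and was 0.61 with an adjusted p of 0.0187 without Con11. In an alternative, mice of the same number at day 25 were fitted as a replicate block, although the labels state no pairs. There Hsph1 passed at day 25 (limma, adjusted p = 0.0751), which made 4 of the 9 genes.

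Hspa8 encodes the constitutive cytosolic HSP70, which folds new proteins and uncoats vesicles. It was at 62.4, 68.1 and 81.7 FPKM in Con mice and at 64.1, 56.9 and 93.5 FPKM in CR mice at day 25. The mice of day 30 had 46.1, 65.2 and 42.7 FPKM under Con and 54.9, 46.9 and 61.4 FPKM under CR. The diets overlapped on both days, with CR9 and Con11 the highest of their groups. The log2 change was -0.01 ± 0.20 at day 25 (limma, adjusted p = 0.986) and 0.10 ± 0.20 at day 30 (adjusted p = 0.771), or 0.28 without Con11 (adjusted p = 0.392). The day 25 sign turned under median-ratio scaling, to 0.05. Of its 100-base windows, 62.8% are shared with other transcripts, chiefly Gm15459 (58.5%), a limit on the reads that can be placed.

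Hsp90aa1 encodes the inducible HSP90. At day 25 it was at 5.51, 5.87 and 4.87 FPKM in Con mice and at 4.97, 4.09 and 7.45 FPKM in CR mice. At day 30 it was at 5.13, 17.05 and 5.53 FPKM in Con mice and at 4.49, 4.58 and 5.18 FPKM in CR mice. The value of Con11 was 3.20-fold the mean of the other Con mice of that day, and the other Con mice overlapped with the CR mice. The excess of Con11 over the highest other Con mouse ranked 8 among the 10593 genes tested. The log2 change at day 30 was -0.64 ± 0.32 (limma, adjusted p = 0.192) and -0.14 without Con11 (adjusted p = 0.644). Without Con10, which left Con11 a larger share of the Con mean, it was -0.92 and passed the test (limma, adjusted p = 0.0963). At day 25 it was -0.01 ± 0.32 (adjusted p = 0.99), with a sign that turned under median-ratio scaling and quantile normalization. Gm12346 shares 39.6% of the 100-base windows of Hsp90aa1.

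**Figure D2:**
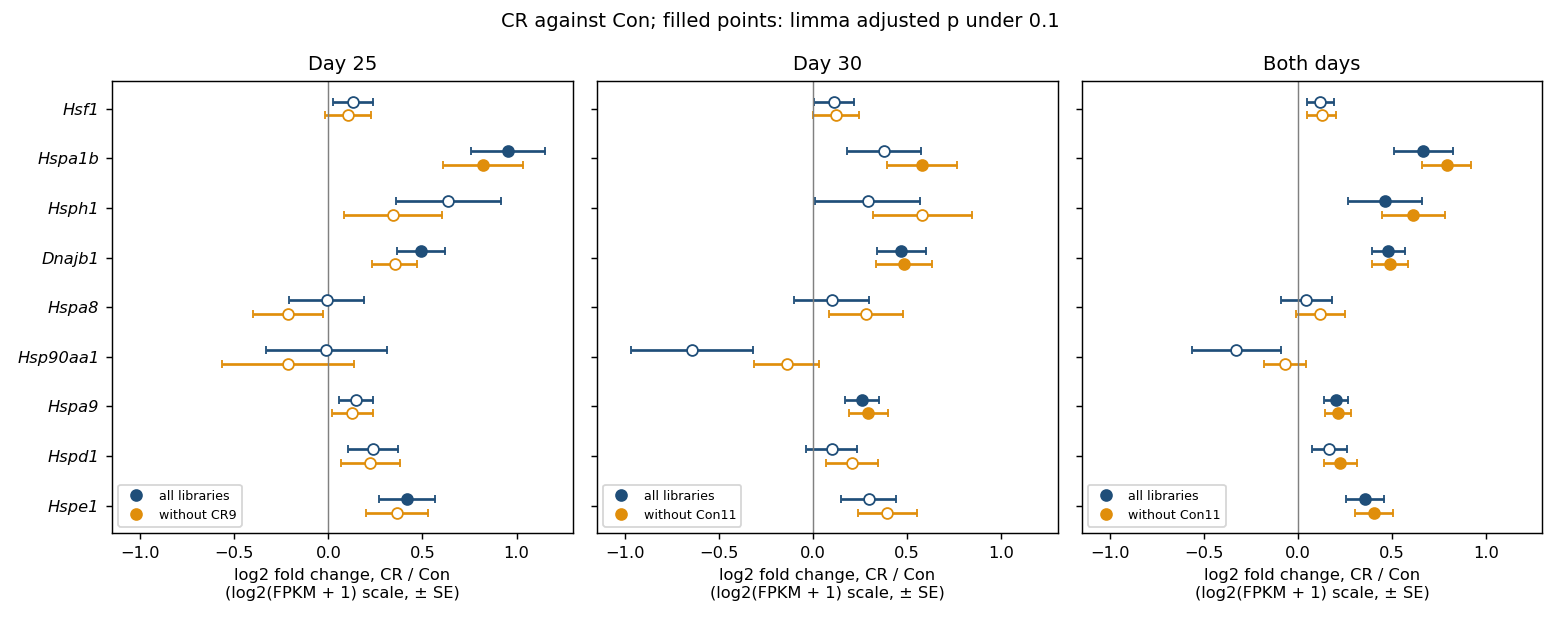
log2 fold changes of CR over Con (x axis, on the log2(FPKM + 1) scale, whiskers ± SE) of the 9 genes tested at day 25, day 30 and over both days. Blue is the fit of all libraries. Orange is the fit without CR9 at day 25 and without Con11 at day 30 and over both days. Filled points have a limma adjusted p under 0.1. Hspa1b was highest at day 25 at 0.96, and Hsp90aa1 at day 30 moved from -0.64 to -0.14 without Con11.

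Hspa9 encodes the mitochondrial HSP70 and was the gene of highest level. At day 25 it was at 150.0, 153 and 149 FPKM in Con mice and at 171, 159 and 172 FPKM in CR mice. Day 30 values were 149, 162 and 151 FPKM in Con mice and 181, 198 and 174 FPKM in CR mice. The CR mice lay above the Con mice of the same day on both days, although CR8 at day 25 was below Con11 of day 30. The mean was 1.11-fold higher at day 25 and 1.20-fold at day 30. The log2 change of 0.15 ± 0.09 at day 25 missed the threshold (limma, adjusted p = 0.346), and that of 0.26 ± 0.09 at day 30 passed (adjusted p = 0.0737), as it did without Con11 (0.29, adjusted p = 0.0924). Over both days it was 0.20 ± 0.06 (limma, adjusted p = 0.0261). The call at day 30 was lost under TPM scaling (0.22, adjusted p = 0.116), under quantile normalization (0.19, adjusted p = 0.226) and without Con10, Con12, CR10 or CR11, and under quantile normalization the call over both days was lost as well (0.13, adjusted p = 0.177).

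Hspe1 and Hspd1 encode the lid and the barrel of the mitochondrial folding chamber. Hspe1 was at 25.9, 32.1 and 30.3 FPKM in Con mice and at 37.6, 38.5 and 42.5 FPKM in CR mice at day 25, without overlap. By day 30 the levels were 30.8, 42.1 and 38.0 FPKM in Con mice and 50.1, 50.2 and 36.7 FPKM in CR mice. CR12 lay below Con11 and Con12, so the groups overlapped. For Hspe1 the log2 change was 0.42 ± 0.15 at day 25 (limma, adjusted p = 0.0978), 0.30 ± 0.15 at day 30 (adjusted p = 0.188) and 0.36 ± 0.10 over both days (adjusted p = 0.0173). The day 25 call was lost without any 1 of the 6 libraries of that day (0.33 to 0.48, adjusted p of 0.109 to 0.269). Without Con11 the day 30 value was 0.39 (limma, adjusted p = 0.136), and without CR12 it was 0.44 and passed (adjusted p = 0.0613).

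Hspd1 was at 51.9, 45.9 and 53.4 FPKM in Con mice and at 63.2, 54.8 and 60.8 FPKM in CR mice at day 25, again without overlap. Levels at day 30 were 50.6, 73.8 and 67.6 FPKM in Con mice and 62.2, 71.4 and 69.9 FPKM in CR mice. Con11 was the highest and Con10 the lowest of the 6 mice of that day. For Hspd1 the log2 change was 0.24 ± 0.13 at day 25 (limma, adjusted p = 0.3), 0.10 ± 0.13 at day 30 (adjusted p = 0.653) and 0.17 ± 0.09 over both days (adjusted p = 0.185). Without Con11 the value over both days was 0.22 and passed (limma, adjusted p = 0.0768), while at day 30 it was 0.21 (adjusted p = 0.365). The day 30 value without Con10 was -0.06. The genes that share the 3-unit element thus differed in their calls, but the difference between them was not tested. Reads of both are also limited by shared sequence. Of the 100-base windows of Hspd1, 26.9% occur in other transcripts, chiefly Hspd1-ps3 (25.8%), and of those of Hspe1 20.4%, in AC117239.2.

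Hsf1 encodes the factor itself, whose activity is set mainly on the protein. It was at 4.44, 5.66 and 5.06 FPKM in Con mice and at 4.89, 6.15 and 5.83 FPKM in CR mice at day 25. In the mice of day 30 it was at 4.52, 4.56 and 4.31 FPKM under Con and at 5.43, 4.95 and 4.33 FPKM in CR mice. The diets overlapped on both days. The log2 change was 0.13 ± 0.11 at day 25 (limma, adjusted p = 0.488), 0.11 ± 0.11 at day 30 (adjusted p = 0.506, or 0.12 and 0.567 without Con11) and 0.12 ± 0.07 over both days (adjusted p = 0.219). The last value was 0.18 under median-ratio scaling and passed the test (limma, adjusted p = 0.0603), as it did under quantile normalization (0.19, adjusted p = 0.0521).

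Without regard to the test, 6 of the 9 genes (Hspa1b, Hsph1, Dnajb1, Hspa9, Hspd1 and Hspe1) had every CR mouse above every Con mouse at day 25, an order that 10.2% of all genes tested had. At day 30, 2 genes (Dnajb1 and Hspa9) had it, against 12.1% of all genes. With 3 mice a group, an exact permutation test within 1 day cannot go below p = 0.1. Permuting diets within days over both days allows 400 relabellings and a smallest p of 0.005. This 2-sided exact permutation test, unadjusted, gave that smallest p of 0.005 for Dnajb1 and Hspa9, 0.01 for Hspa1b and 0.015 for Hspe1. For the other genes, Hspa1a included, the exact permutation p ranged from 0.07 for Hsph1 to 0.775 for Hspa8.

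No gene of the 9 passed the test for a CR effect that differed between the days, where 0.00944% of all genes tested passed (limma, 0 of the 9 and 366 of all genes at an unadjusted p under 0.05). From day 25 to day 30, 0 of the 9 passed within CR mice, against 0.321% of all genes, and 0 had an unadjusted p under 0.05 (917 of all genes). Within Con mice 0 of the 9 passed, as did 0.0% of all genes, while 2 had an unadjusted p under 0.05 (765 of all genes). These were Hspa8, at -0.47 ± 0.20 (limma, adjusted p = 0.656), and Hspd1, at 0.32 ± 0.13 (adjusted p = 0.644). Hspa1b in CR mice went from a mean of 1.85 FPKM at day 25 to 1.10 FPKM at day 30, a log2 difference of -0.42 ± 0.20 (limma, adjusted p = 0.565).

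Mice of the same group also differed from each other in the cytosolic chaperones, as the plot of differences within groups shows. CR9 was the highest CR mouse of day 25 for 7 of the 10 genes and CR8 the lowest for 8, whereas these libraries held that place for 26.3% and 33.1% of all genes tested. In Con mice of day 30, Con11 was highest for 9 and Con10 lowest for 7 of the 10 genes, against 32.4% and 30.8% of all genes. Con8 was the highest Con mouse of day 25 for 8 of the 10, but it held that place for 50.3% of all genes. The 10 genes are not independent of each other, so these counts are descriptions. Relative to the other mice of their group, CR9 and Con11 had 1.92-fold and 1.95-fold the Hsph1 level and 1.55-fold and 1.47-fold the Hspa8 level. They did not go together in every gene, since Dnajb1 was 1.37-fold higher in CR9 and 1.03-fold in Con11, while Hsp90aa1 was 1.64-fold higher in CR9 and 3.20-fold in Con11. Hspb1, Hsp90ab1 and Dnaja1, set beside them after their values were seen, were at 2.56-fold, 1.63-fold and 0.988-fold in Con11.

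**Figure D3:**
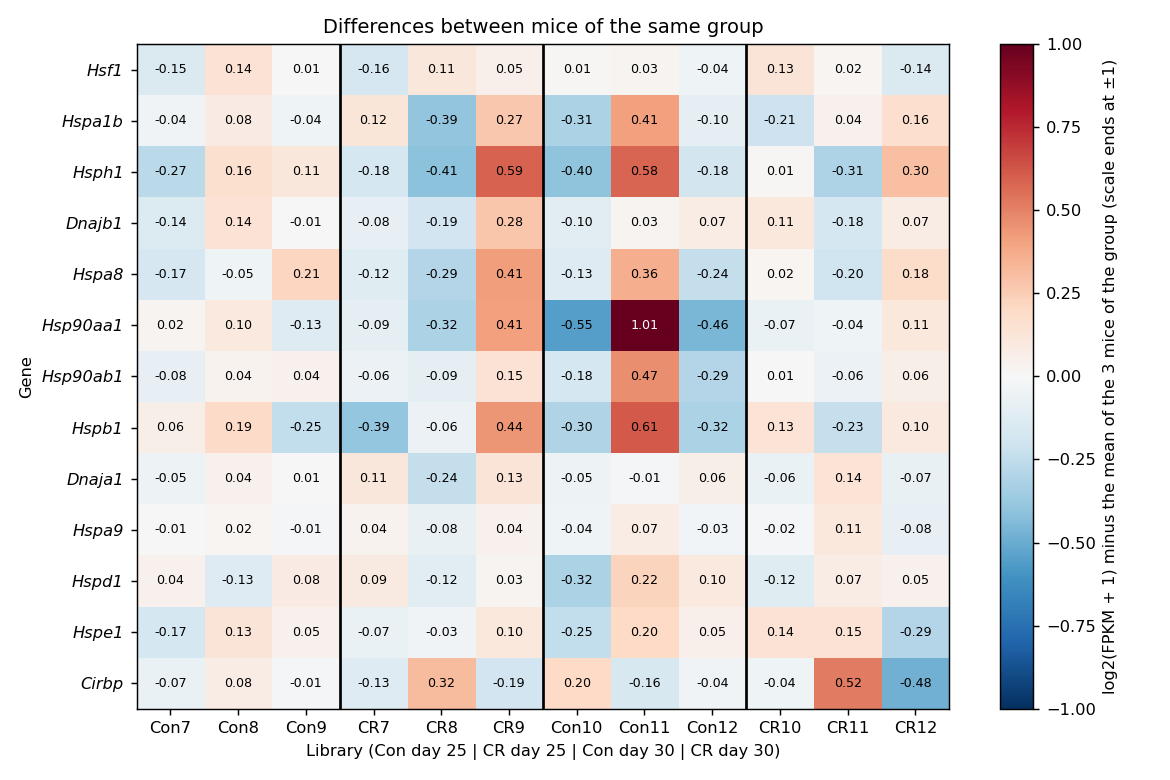
Each cell is the log2(FPKM + 1) of a gene (rows) in a library (columns) minus the mean of the 3 mice of its group; the color scale ends at ±1, red is above and blue below the group mean, and black lines part the groups. Con11 is red for Hspa1b, Hsph1, Hspa8, Hsp90aa1, Hsp90ab1 and Hspb1 and CR9 for Hsph1, Hspa8, Hsp90aa1 and Hspb1, while the row of Hspa9 is close to 0 throughout.

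The remaining genes of 8 chaperone lists, 98 besides the 10, of which 86 were tested, were called in both directions. At day 25, 3 rose and 4 fell in CR mice, and at day 30, 4 rose and 9 fell. Over both days 14 rose and 13 fell. All genes tested were called higher at 5.6%, 8.33% and 14.5% and lower at 9.34%, 16.4% and 26.1% in these comparisons. Of 25 tested genes on a list of classic heat-inducible HSF1 targets, the 18 outside the 10 genes had 2 rises and 0 falls at day 25 and 2 rises and 2 falls at day 30.

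Among heat shock factors, Hsf2, a factor that can pair with HSF1, went from 6.80 to 8.12 FPKM in Con mice to 4.19 to 5.87 FPKM in CR mice at day 25 and fell by 0.45 ± 0.12 on the log2 scale (limma, adjusted p = 0.0295). At day 30 the ranges overlapped and the value was -0.09 (adjusted p = 0.609). Hsf4 rose over both days, by 0.20 (adjusted p = 0.0955).

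In the HSP70 family, Hspa2, a member best known from the testis, rose most at day 30 and over both days on the log2(FPKM + 1) scale, while at day 25 Hspa1b rose more. Hspa2 was at 0.777 to 1.04 FPKM in Con and 1.94 to 2.61 FPKM in CR mice at day 25, and at 0.465 to 0.659 and 2.28 to 2.67 FPKM at day 30. Its log2 change was 0.82 ± 0.11 at day 25 (limma, adjusted p = 0.00125) and 1.14 ± 0.11 at day 30 (adjusted p = 6.95e-05). Among Con mice only Con8 reached 1 FPKM (1.04), so Hspa2 passed the filter through the diet in which it was higher. Hspa4, a relative of Hsph1, fell by 0.35 ± 0.10 at day 30 (limma, adjusted p = 0.0378, and -0.29 and 0.129 without Con11), and Hspa14, a ribosome-bound HSP70, fell by 0.21 ± 0.08 over both days (adjusted p = 0.0545).

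Of the J-domain genes, Dnaja1, a cytosolic partner of HSP70, rose at day 25 by 0.53 ± 0.11 (limma, adjusted p = 0.0109). It was at 14.4 to 15.3 FPKM in Con and 18.5 to 24.1 FPKM in CR mice. Its day 30 change was 0.07 (adjusted p = 0.687). Dnajb6 and the mitochondrial Dnajc19 rose at day 30, by 0.40 and 0.35 (limma, adjusted p = 0.0866 and 0.0671). Dnajc30 fell on both days, by 0.37 and 0.55 (adjusted p = 0.0801 and 0.0098).

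HSP90 cochaperones were led by Fkbp5, an immunophilin that glucocorticoids induce. It was at 17.8 to 38.9 FPKM in Con and 74.8 to 97.99 FPKM in CR mice at day 25, and at 8.27 to 14.8 and 50.0 to 67.8 FPKM at day 30. The log2 change was 1.47 ± 0.28 (limma, adjusted p = 0.00809) and 2.35 ± 0.28 (adjusted p = 0.000304). Chordc1 rose by 0.33 over both days (limma, adjusted p = 0.0392), and Ppid fell by 0.40 at day 30 (adjusted p = 0.0692), a call lost without Con11 (-0.23, adjusted p = 0.239). None of the remaining 15 tested genes of this list passed in these comparisons.

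Many small heat shock proteins hold unfolded clients without ATP. Of 5 tested genes on this list, 1 fell at day 25 and 3 fell at day 30, and 0 rose on either day. Of all genes tested, 9.34% were called lower at day 25 and 16.4% at day 30. Hspb6 was at 10.8 to 12.9 FPKM in Con and 6.79 to 8.27 FPKM in CR mice at day 25 and fell by 0.62 ± 0.13 (limma, adjusted p = 0.0139). It fell by 0.58 ± 0.13 at day 30 (adjusted p = 0.0124). Hspb1 and Hspb11 fell at day 30, by 0.71 and 0.47 (limma, adjusted p = 0.0794 and 0.0398). Con11 held the highest Hspb1 value of all libraries at 3.45 FPKM, and without it the day 30 change was -0.40 (limma, adjusted p = 0.271). For Hspb11 it was -0.44 (adjusted p = 0.111). Hspb8 rose by 0.20 over both days (adjusted p = 0.0439).

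In mitochondria, Clpx, the unfoldase of a matrix protease, fell while Hspa9 and Hspe1 rose. Clpx was at 37.3 to 60.0 FPKM in Con and 21.0 to 36.1 FPKM in CR mice at day 25, and at 36.6 to 55.2 and 18.7 to 20.1 FPKM at day 30. It fell by 0.75 ± 0.21 (limma, adjusted p = 0.0413) and by 1.19 ± 0.21 (adjusted p = 0.003). The protease genes Oma1 and Yme1l1 fell over both days, by 0.23 and 0.35 (limma, adjusted p = 0.0109 and 0.0259). Of the 15 tested genes for TRiC and prefoldin, a cytosolic folding ring and its helper, 0 passed on either day, and 4 rose and 2 fell over both days.

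Each library was also left out for these list genes, an alternative chosen after the data were seen. Results without single libraries are not given for Spg7 and Afg3l2. At day 25 the calls of Hsf2, Hspa2, Dnaja1, Fkbp5 and Hspb6 held without any 1 library, and at day 30 those of Hspa2, Dnajc30, Fkbp5, Hspb6 and Clpx did. The day 25 call was lost without 3 of the 6 libraries of that day for Clpx (Con7, CR7 and CR8, at -0.57 to -0.73) and without 4 for Dnajc30 (Con8, Con9, CR7 and CR9, at -0.29 to -0.36). The day 30 call was lost without 5 for Dnajb6 (all but Con12) and without 3 for Dnajc19 (Con11, CR10 and CR11), Hspb11 (Con11, CR10 and CR12) and Ppid (Con11, CR10 and CR11). It was lost without 4 for Hspb1 (Con11, CR10, CR11 and CR12) and without 2 for Hspa4 (Con11 and CR10). Over both days the call was lost without 9 of the 12 libraries for Hsf4, 5 for Hspa14 and 1 for Hspb8.

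**Figure D4:**
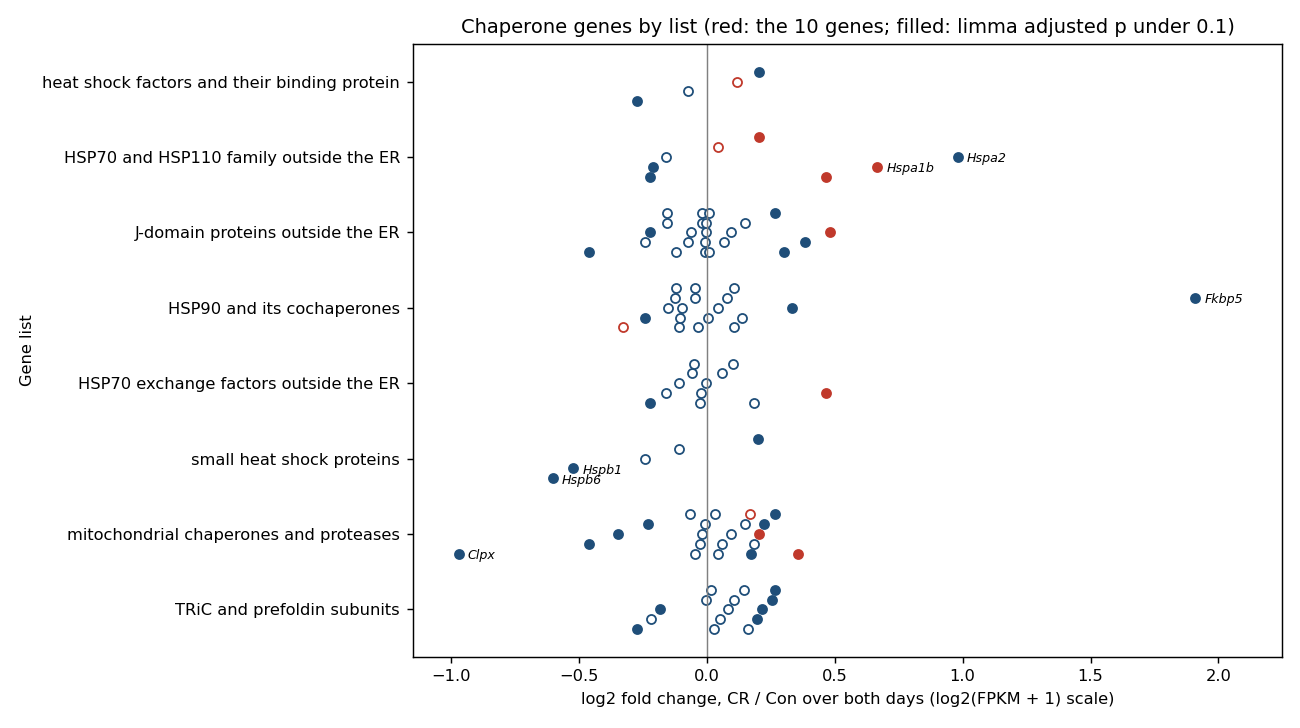
log2 fold changes of CR over Con over both days (x axis, log2(FPKM + 1) scale) for the tested genes of 8 chaperone lists (rows; points are spread vertically for legibility only, and a gene on several lists appears in each); red marks the 10 genes, filled points have a limma adjusted p under 0.1, and genes at 0.5 or beyond are named. Fkbp5 at 1.91 and Clpx at -0.97 lie outermost.

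Genes that respond to other inputs moved with diet in the same libraries. Zfand2a, a gene on the HSF1 target list that arsenite and heat induce, fell by 0.50 at day 30 (limma, adjusted p = 0.0111). Cirbp, an RNA-binding protein induced by cold, was at 19.5, 21.6 and 20.3 FPKM in Con and 11.2, 15.5 and 10.6 FPKM in CR mice at day 25. For day 30 the values were 21.9, 16.8 and 18.5 FPKM in Con and 10.4, 15.8 and 7.38 FPKM in CR mice. The CR mice were below the Con mice on both days, and Cirbp fell by 0.69 ± 0.21 and 0.77 ± 0.21 (limma, adjusted p = 0.0602 and 0.0276). The day 25 call of Cirbp was lost without any 1 library of that day but CR8, with an adjusted p of up to 0.185. Rbm3, its cold-induced relative, rose at day 30 by 0.38 (adjusted p = 0.0637, and 0.105 without Con11) and was at 0.02 at day 25 (adjusted p = 0.948). Clock genes also differed, with Nr1d1, a repressor of the clock, lower by 2.37 and 2.28 log2 units and Cry1 higher by 1.47 and 1.63 at day 25 and day 30 (limma, adjusted p of 5.1e-06, 4.02e-06, 0.000386 and 7.6e-05 in that order). Whether these changes had a part in the chaperone values was not tested.

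Genes whose levels over the 12 libraries were most like those of the 10 genes were ranked by Pearson r with the mean z-score of each class, as a description with shared groups and libraries. For the 5 tested cytosolic chaperones these were Grpel2 (r = 0.846), which encodes a nucleotide exchange factor of mitochondrial HSP70, Sik3 (0.827), Ccdc117 (0.811), Fbxo45 (0.807) and Ahsa2 (0.806), a relative of the HSP90 activator. For the 3 mitochondrial chaperones they were Coq10b (0.924), Riok2 (0.916), Gm14403 (0.915), Zfp970 (0.912) and Ndufs1 (0.909). For Hsf1 they included Hint2 (0.955), Gm12191 (0.942), Rpl30 (0.941) and Pgls (0.932).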

How the data were processed

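The authors extracted liver RNA, sequenced 100-base paired reads on 1 lane and mapped them to mm10 with BWA, and the submitters' processing notes also name CASAVA 1.8.2, FastQC and DESeq2. BWA does not split reads over introns. The deposited values are FPKM, which per the file header HOMER made from reads on exons with 1 transcript per gene and no scaling between libraries. Whole reads were read back from the spacing of low FPKM values (99.8% to 100% of values whole within 0.05 read) and gave the depth, which limits the precision of genes with few reads such as Hspa1a.

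Genes with FPKM of at least 1 in at least 3 of the 12 libraries entered limma 3.58.1 (R 4.3.3) on the log2(FPKM + 1) scale, using a trend in the moderated variance and 1 model of the 4 groups. For diet over both days, the model held day as a covariate. Tests were 2-sided, and a Benjamini-Hochberg adjusted p under 0.1 was a call, the study's limit. The code was tested on simulated data. DESeq2 was not used, since the deposited FPKM are not counts, and a count-based fit was run only as an alternative, with voom on the recovered reads. The labels number the samples within each group. Each sample was taken as a separate mouse, and p-values measure the spread between them. The columns Con10 to Con12 were tied to their group but not to single sample labels. Deviations of same-numbered Con and CR mice of day 25 had correlations of 0.106 to 0.368 over genes, and those of different numbers -0.287 to 0.013. Between CR mice of day 25 and day 30, same numbers gave -0.382 to 0.299 and different numbers -0.39 to 0.335. The labels state no pairs, and pairing was not established. The numbers were therefore fitted as a replicate block only in an alternative.

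The 10 genes and all lists were chosen with earlier results of these data known. Named genes are the 10, up to 4 genes per list and comparison with the largest change past the test, and Cirbp and Rbm3. The 5 genes most like each class are named as well, and a few of all these are left out of the text. Spg7 and Afg3l2, of the mitochondrial list, were added to the named genes after their values were seen. Lists held heat shock factors, HSP70, J-domain proteins, HSP90 cochaperones, exchange factors, small heat shock proteins, mitochondrial chaperones, TRiC, HSF1 targets, cold-inducible, immediate early and clock genes and cell type markers. Immediate early genes had 1 rise and 0 falls at day 25 and 0 rises and 1 fall at day 30 of 7 tested. Clock genes had 3 rises and 2 falls, then 4 rises and 3 falls, of 15 tested. Promoter windows came from RefSeq, transcripts for shared windows from GENCODE on GRCm38. Alternatives covered pseudocount, filter, scaling, moderation, voom on recovered reads, model groups, thresholds, the block and each library left out. Voom without Con11 and each library left out for the list genes were added after the data were seen. Tables were made with pandas 2.3.3 and numpy 2.4.6 under Python 3.11.15, and figures with matplotlib 3.10.9.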

Additional observations from a re-analysis of the deposited data

Results flagged for a closer look

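Within the 6 mice of each diet, a sample was listed when its gap to the nearest other, divided by the range, was above Dixon's critical value for 6 samples on log2(FPKM + 1). Of 20 groups examined (10 genes in 2 diets), 3 had such a sample, where chance gives about 1 in 20, and the genes are not independent. All 3 were Con11, which was above the other Con mice for Hsp90aa1 (17.049 FPKM, gap over range 0.86), for Hspa9 (162.055 FPKM, 0.71) and for Hspa1b (1.136 FPKM, 0.677). In Con11 the Hspa9 level was 1.08-fold, the Hspa1b level 2.83-fold and the Hsp90aa1 level 3.20-fold the mean of the other Con mice of day 30.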

How the results depend on the processing

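With 3 mice a group, calls near the threshold depended on single libraries. The count of the 9 genes past the test was 3 at day 25, 2 at day 30 and 5 over both days. Leaving out 1 library each, it ranged from 1 (without CR9 or Con7) to 2 at day 25, from 0 (without CR10) and 1 (without CR11 or Con12) to 3 (without Con11 or CR12) at day 30 and from 4 to 6 (without Con11) over both days. At day 30 it was 1 under TPM scaling, quantile normalization, the 2 groups alone and an adjusted p under 0.05. With an added log2 fold change of at least 1 it was 0 at day 25, 0 at day 30 and 0 over both days on the log2(FPKM + 1) scale. Hspa1b met that limit at day 25 with a pseudocount of 0.1 (1.79), voom (2.01), quantile normalization (1.02) or CR8 left out (1.15), and over both days with a pseudocount of 0.1 (1.31) or voom (1.47). Median-ratio scaling gave 3, 3 and 7, voom on recovered reads 3, 2 and 5, and voom without Con11, chosen after seeing the data, 3 at day 30 and 6 over both days. With the replicate block at day 25 the count was 4 (Hsph1 added), and the block changed no other call there. No paired analysis was possible at day 30 or over both days because Con10 to Con12 carry no number from the labels. Median-ratio scaling turned all genes called from 593 higher and 989 lower to 929 and 799 at day 25, from 882 and 1737 to 1319 and 1238 at day 30 and from 1536 and 2768 to 2229 and 1995 over both days. The causes were not tested.

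Some signs turned. Hspa8 at day 25 was 0.0531 under median-ratio scaling, and Hsp90aa1 at day 25 was 0.0432 under median-ratio scaling and 0.0519 under quantile normalization. The difference of CR effects between days was 0.00599 for Hsf1 and 0.0121 for Dnajb1 under quantile normalization. Leaving out 1 library gave, for CR against Con, -0.216 to 0.137 for Hspa8 and -0.215 to 0.149 for Hsp90aa1 at day 25, -0.0198 to 0.28 for Hspa8 and -0.0602 to 0.208 for Hspd1 at day 30, and -0.0413 to 0.12 for Hspa8 over both days. For the difference of CR effects between days it gave -0.103 to 0.0532 for Hsf1, -0.0389 to 0.314 for Hspa8, -0.118 to 0.116 for Dnajb1 and -0.244 to 0.0251 for Hspe1. Between days within CR mice it gave -0.443 to 0.0545 for Hsph1, -0.222 to 0.0116 for Dnajb1 and -0.307 to 0.0579 for Hsp90aa1. Between days within Con mice it gave -0.0463 to 0.314 for Hspa1b, -0.00667 to 0.0516 for Hspa9, -0.182 to 0.311 for Hsph1 and -0.0175 to 0.762 for Hsp90aa1. Over the 9 genes tested and all comparisons and alternatives, 860 single values kept sign and call, 29 lost a call, 11 gained one and 36 changed sign.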
